A study of Homo sapiens with 36 samples.

Results

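The genes described here are 46 genes of the G1/S transition and of DNA replication. They were taken by name, by their known roles, and by no cut on a measured value. Earlier results of these data were known when they were chosen. All 46 of the 46 are among the 19014 genes of the normalized expression table, and all 46 passed the filter on low counts that left 15819 genes for testing. By role they are 10 genes of origin licensing, 6 of origin firing, 7 of the replicative polymerases and primase, 5 of the sliding clamp and its loader, 4 of Okazaki fragment joining and chromatin assembly, 4 of nucleotide supply, 7 regulators of G1/S and 3 partners of S phase.

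The study used H446 cells, an established line derived from a human small-cell lung cancer, which the labels place in the NEUROD1-high class SCLC-N, and sequenced their RNA. Control clones 3, 10 and 13 carry a non-targeting guide RNA and are labelled WT. Clones 12, 15 and 2-1 are NEUROD1 knockouts, all made with guide #297. Each of the 6 clones was kept for 24 h with DMSO, the solvent, or with 1 µM JQ1, a small molecule that binds the bromodomains of BET proteins. All groups therefore share the H446 background and the guide RNA step, and no unedited parental line and no other NEUROD1 guide were analysed here. Each clone and treatment has 3 libraries, labelled biological replicates, and each clone is a single line, so genotype was compared over 3 against 3 clones. The p-values measure the spread between these clones, which differ in origin as well as in genotype.

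Origins of replication are licensed in G1, when ORC, CDC6 and CDT1 load the MCM2 to MCM7 helicase onto DNA. In S phase CDC45 and the GINS complex join the helicase, and the polymerases follow with the PCNA clamp, which the RFC complex loads. Most of these genes are textbook targets of E2F transcription factors, which the RB protein restrains until cyclin E with CDK2 drives cells into S phase. E2F1 and E2F2 are activators, and E2F7 and E2F8 are repressors of the same kind of target.

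Promoter sequence was read for the members because many E2F targets carry E2F letters close to the start of transcription. The RefSeq promoter table (GRCh38.p14) held 40 of the 46 members. Each promoter spans 250 bases before to 50 bases after the start, and the letters searched, on either strand, were TTTCCCGC, TTTCGCGC, TTTGCCGC and TTTGGCGC. They were present in 22 of the 40 (55.0%), in 6.59% of the 10131 tested genes with a promoter, and in 3.99% of the 27305 symbols in the whole table. The 8 sequences printed cover the 100 bases before the start, 5′ to 3′ on the gene's strand, with the E2F letters in capitals. They show members that JQ1 moved in opposite directions and were chosen after the matches and the values had been seen.
E2F1: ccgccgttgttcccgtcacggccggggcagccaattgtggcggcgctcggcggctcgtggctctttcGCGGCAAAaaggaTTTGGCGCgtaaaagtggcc
PCNA: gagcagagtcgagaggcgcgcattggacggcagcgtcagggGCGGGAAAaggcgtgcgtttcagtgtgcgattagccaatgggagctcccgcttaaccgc
MCM6: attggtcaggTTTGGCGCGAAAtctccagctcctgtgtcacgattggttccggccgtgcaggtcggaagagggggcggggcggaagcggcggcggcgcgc
POLE: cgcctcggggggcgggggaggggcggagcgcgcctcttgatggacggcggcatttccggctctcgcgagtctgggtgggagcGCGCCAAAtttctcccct
GINS2: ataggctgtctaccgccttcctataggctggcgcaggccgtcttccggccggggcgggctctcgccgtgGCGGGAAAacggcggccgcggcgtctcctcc
E2F2: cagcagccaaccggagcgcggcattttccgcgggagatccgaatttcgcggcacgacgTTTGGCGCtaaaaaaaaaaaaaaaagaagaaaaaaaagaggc
RFC3: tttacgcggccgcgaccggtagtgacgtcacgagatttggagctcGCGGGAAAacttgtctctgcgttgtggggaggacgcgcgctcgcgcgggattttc
CDC25A: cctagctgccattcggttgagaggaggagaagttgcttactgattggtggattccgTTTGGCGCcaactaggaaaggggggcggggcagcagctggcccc

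The windows lie at chr20:33686386-33686485 (minus strand) for E2F1, chr20:5126623-5126722 (minus) for PCNA, chr2:135876444-135876543 (minus) for MCM6 and chr12:132687343-132687442 (minus) for POLE. Those of the other four lie at chr16:85688955-85689054 (minus) for GINS2, chr1:23531234-23531333 (minus) for E2F2, chr13:33818049-33818148 (plus) for RFC3 and chr3:48188418-48188517 (minus) for CDC25A. E2F1 holds 2 separate matches and MCM6 holds 2 that overlap. In PCNA the match runs from 59 to 52 bases before the start, and in POLE from 18 to 11. The first 5 of these genes rose with JQ1 in control clones and the last 3 fell, so the same letters stand in promoters of both kinds. Of the matched members that rose with JQ1 in control clones, 10 of 14 (71.4%) held the letters, beside 8 of 12 (66.7%) of those that fell and 4 of 14 (28.6%) of those not called. By the calls in knockout clones the shares lay closer together, at 6 of 9 (66.7%), 11 of 19 (57.9%) and 5 of 12 (41.7%). The letters CCAAT, on either strand, were in 24 of the 40 (60.0%), in 43.7% of the tested genes with a promoter and in 39.7% of all symbols. They were also in 17 of 27 replication genes outside the members (63.0%) and in 28 of 34 genes of G2 and mitosis (82.4%). These matches are a description of letters and say nothing of binding.

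The libraries used held 13282337 to 18890506 reads, with a median of 16176503, and a member had between 37 and 16180 reads in a library. NEUROD1, the targeted gene, had 5134 to 6523 normalized counts in control libraries with DMSO, and 0 to 6.60 in knockout libraries. Of the SCLC-N markers, INSM1 had 2065 to 3260 normalized counts in control libraries with DMSO and 33.4 to 55.6 in knockout libraries, and CHGA and SYP were also lower in every knockout library, so the labelled class is carried by the control clones alone. HEXIM1, a gene known to rise under BET inhibition, rose with JQ1 from 459 ± 29.3 to 2138 ± 170.0 (mean ± SD of clone means, n = 3) in control clones. Knockout clone 12 with JQ1 replicate 1 was left out of every fit except 1 alternative, although the filter on low counts had used all 36 libraries. The 5 of 7 lung epithelium markers with counts summed to 67884 normalized counts there, against 2.33 to 129.8 in the other 35 libraries. The highest of those 35 was control clone 13 with JQ1 replicate 1, and the other 34 reached at most 34.9. In the library left out 36 of the 46 members were below the mean of the other 2 replicates of its group, with a median ratio of 0.655, beside 0.770 over the 4149 genes with a mean of at least 1000 normalized counts. Members such as E2F8 lie below that level, and the share over all genes was not computed, so these values are not read as a trait of the members.

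Levels per length, in FPKM (fragments scaled to transcript length and library depth), ran from 293 ± 39.9 for MCM7, a helicase subunit, to 4.94 ± 0.223 for E2F8 (mean ± SD, n = 3 control clones, DMSO). PCNA, the clamp, followed MCM7 with 221 ± 5.33 FPKM, then the helicase subunit MCM4 with 178 ± 10.3 and thymidylate synthase, TYMS, with 173 ± 1.77. MCM4 and TYMS did not differ beyond their spread, whereas E2F8 lay well below the next lowest member, the licensing factor CDT1, with 11.0 ± 1.04. Among the 4 E2F members the order of FPKM was E2F1 with 39.6 ± 3.67, E2F2 with 19.3 ± 2.38, E2F7 with 13.6 ± 4.84 and E2F8. E2F2 and E2F7 were not separated beyond the spread over clones.

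The response to JQ1 asks how BET inhibition for 24 h changed these genes in each genotype. JQ1 did not move the G1/S and replication genes as a block: members of the same complex rose and fell side by side. In control clones the G1 cyclin CCNE2, the histone mRNA factor SLBP and the clamp PCNA rose most, while E2F8, the polymerase subunit POLE2 and E2F2 fell furthest. By limma with Benjamini-Hochberg adjustment over 15819 genes, 17 of the 46 members were higher and 13 lower in control clones. Among all genes tested 25.1% were called higher and 27.3% lower, so the share of members called is close to the background for falls and somewhat above it for rises. The median log2 difference was 0.05 over members and -0.01 over all genes.

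**Figure D1:**
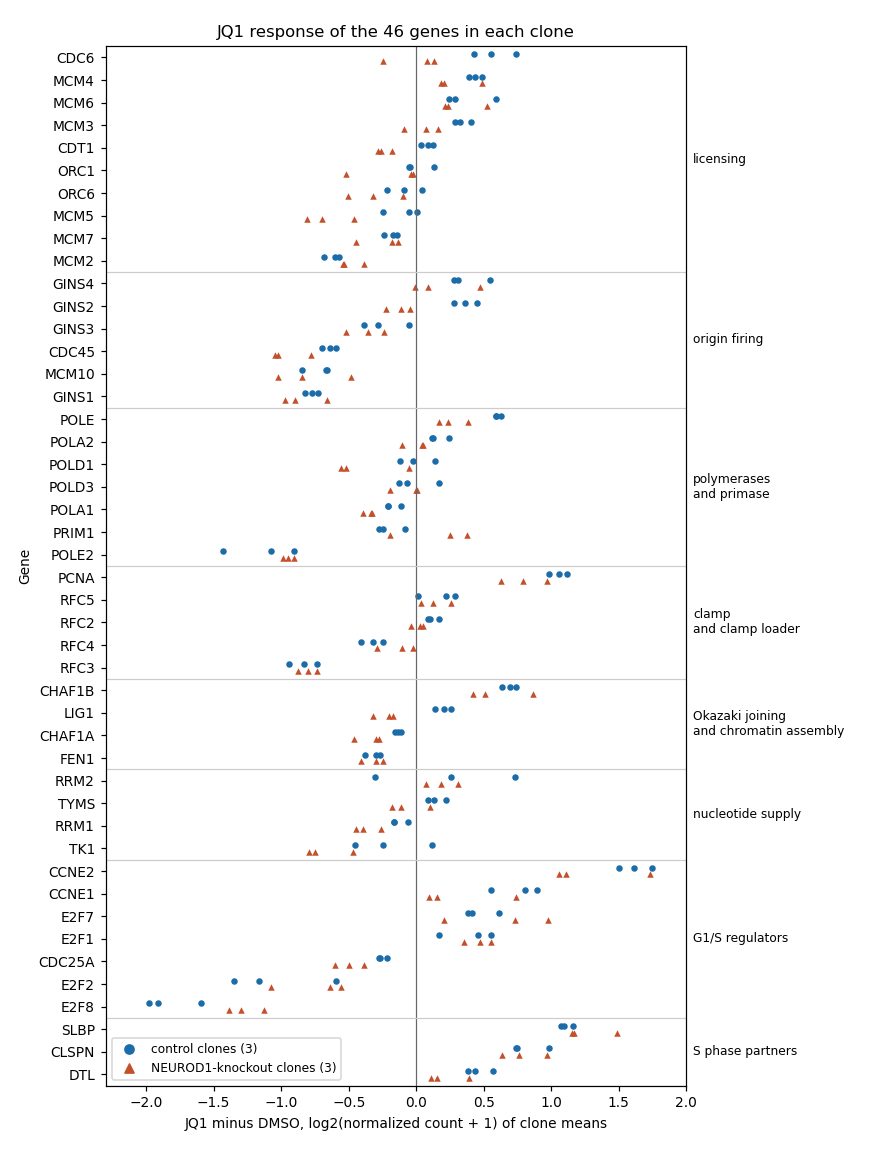
JQ1 minus DMSO difference in log2(normalized count + 1) of each clone mean (horizontal axis) for each of the 46 genes, grouped by role; circles are the 3 control clones and triangles the 3 NEUROD1-knockout clones. CCNE2, SLBP and PCNA lie to the right of 0 in all 6 clones, and E2F8, POLE2 and RFC3 to the left.

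In knockout clones 11 members were higher and 21 lower with JQ1, beside 26.2% and 30.2% of all genes, a share close to the background for rises and above it for falls. The median was -0.13 over members and -0.05 over all genes. Of the 17 members higher in control clones, 11 (64.7%) were also called higher in knockout clones, where they made up 100% of the 11 higher calls. Of the 13 lower in control clones 12 (92.3%) were called lower in knockout clones, 57.1% of the 21 there. The same overlap over all genes tested was not computed, so these shares are not read as a trait of the members. LIG1 was called in opposite directions in the genotypes, and 8 members (ORC1, POLA2, POLD3, PRIM1, RFC2, RFC5, RRM2 and TYMS) were called in neither. The genotypes share no library in these comparisons, although they share the fit's estimate of the spread.

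The genes of G2 and mitosis moved with the treatment as well. Of 40 such genes, 39 were lower with JQ1 in control clones, with a median log2 difference of -1.07, beside 27.3% of all genes. In knockout clones 34 were lower, with a median of -0.61, beside 30.2% of all genes. In bulk RNA, fewer cells in a phase of the cycle and less RNA per cell cannot be told apart, and the part of cell cycle position in the members' values was not tested. Stroma markers also moved with JQ1: the 4 of 5 that have counts summed to 806 to 4656 normalized counts in control libraries with DMSO and 243 to 1251 with JQ1, and their part was not tested.

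The G1/S regulators held both the largest rise and the largest fall. CCNE2 encodes cyclin E2, a partner of CDK2. Its normalized counts in control clones 3, 10 and 13 averaged 772, 734 and 945 with DMSO and 2361, 2078 and 3179.9 with JQ1. In knockout clones 12, 15 and 2-1 they averaged 569.8, 513 and 537 with DMSO and 1881, 1070.5 and 1157 with JQ1. Every JQ1 library was above every DMSO library of its genotype, and clone 12 stood higher with JQ1 than the other two knockout clones. The log2 difference was 1.62 ± 0.12 (SE) in control clones (adjusted p = 2.7e-05) and 1.30 ± 0.12 in knockout clones (adjusted p = 6.0e-05). CCNE1, encoding cyclin E1, rose by 0.75 ± 0.13 in control clones (adjusted p = 0.0013). Its difference in knockout clones was 0.33 ± 0.13 (adjusted p = 0.053), and there clones 12, 15 and 2-1 averaged 558, 635 and 535 normalized counts with DMSO and 927, 677 and 596 with JQ1. Clone 12 thus stood apart from the other two knockout clones.

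E2F8, an atypical E2F that represses E2F targets, fell furthest. Control clones 3, 10 and 13 averaged 252, 234 and 229 normalized counts with DMSO and 63.5, 76.8 and 61.2 with JQ1. Knockout clones 12, 15 and 2-1 averaged 341, 567 and 253 and 129.6, 231 and 116. The treatment groups did not overlap within control clones, whereas within knockout clones the highest JQ1 library, of clone 15, exceeded the lowest DMSO library, of clone 2-1. E2F8 fell by 1.83 ± 0.11 on the log2 scale in control clones (adjusted p = 1.4e-05) and by 1.27 ± 0.11 in knockout clones (adjusted p = 4.9e-05). Its close relative E2F7 went the other way, with rises of 0.47 ± 0.13 (adjusted p = 0.014) and 0.64 ± 0.13 (adjusted p = 0.0029). Without control clone 3 the rise of E2F7 in control clones was not called (adjusted p = 0.089).

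The activators were split too. E2F1 rose by 0.39 ± 0.08 in control clones (adjusted p = 0.0037) and by 0.46 ± 0.08 in knockout clones (adjusted p = 0.0015). E2F2 averaged 1654, 1506 and 1301 normalized counts in control clones 3, 10 and 13 with DMSO and 648, 671 and 862 with JQ1. The fall in clone 13 was smaller than in clones 3 and 10, with no overlap between treatments. E2F2 fell by 1.04 ± 0.15 in control clones (adjusted p = 5.0e-04) and by 0.76 ± 0.15 in knockout clones (adjusted p = 0.0023). CDC25A, a phosphatase that activates CDK2, had the smallest call of the role, with a fall of 0.25 ± 0.06 in control clones (adjusted p = 0.01). That call was lost without control clone 10 (adjusted p = 0.069) or without clone 3 (adjusted p = 0.063). In knockout clones CDC25A fell by 0.50 ± 0.06 (adjusted p = 2.9e-04).

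All 3 S phase partners rose in both genotypes. SLBP binds the stem-loop of replication-dependent histone mRNAs. In control clones 3, 10 and 13 it averaged 1142, 1137 and 1052 normalized counts with DMSO and 2425, 2386 and 2357 with JQ1, and in knockout clones 12, 15 and 2-1 1086, 932 and 1011 and 3042, 2079 and 2268. The treatments were far apart in all 6 clones, with differences of 1.11 ± 0.07 (adjusted p = 1.7e-05) and 1.27 ± 0.07 (adjusted p = 1.1e-05). CLSPN encodes claspin, an adaptor of the replication checkpoint kinase CHK1, and it rose by 0.82 ± 0.08 (adjusted p = 7.2e-05) and 0.79 ± 0.08 (adjusted p = 7.8e-05). DTL, a subunit of the ubiquitin ligase that degrades CDT1 in S phase, rose least, by 0.46 ± 0.07 (adjusted p = 7.0e-04) in control clones and 0.22 ± 0.07 (adjusted p = 0.026) in knockout clones. The DTL call in knockout clones was lost without clone 12, where the difference was 0.13, with the doubtful library included (0.11), on FPKM (0.11), with equal library totals (0.15) and without replicate 1 (0.18).

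**Figure D2:**
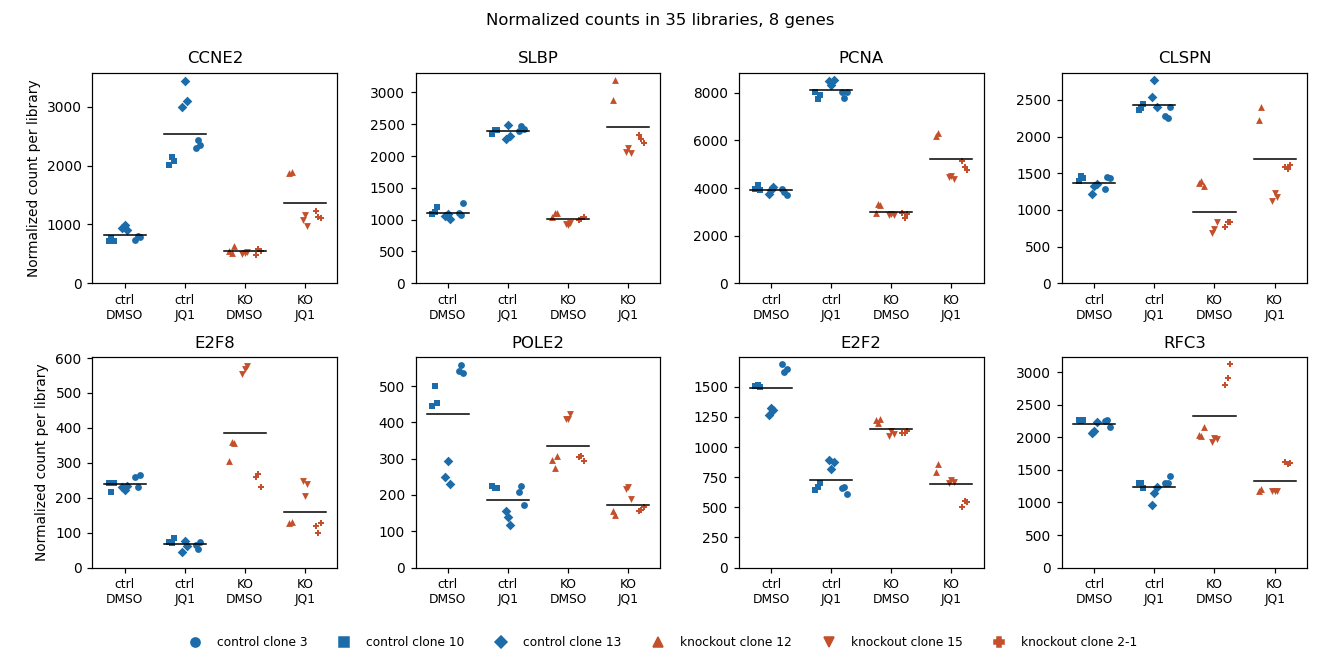
Normalized counts per library (vertical axis, from 0) of 8 genes in control and NEUROD1-knockout (KO) clones with DMSO or JQ1; each point is 1 of the 35 libraries, the shape marks the clone and the bar is the mean of clone means. PCNA lay between 3704 and 4140 in control libraries with DMSO and between 7737 and 8557 with JQ1, whereas E2F8 lay between 218 and 266 with DMSO and between 45.7 and 85.4 with JQ1.

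Clamp and clamp loader genes parted company. PCNA, the ring that holds polymerases on DNA, averaged 3829, 4002 and 3902 normalized counts in control clones 3, 10 and 13 with DMSO and 7952, 7889 and 8456 with JQ1. In knockout clones 12, 15 and 2-1 the averages were 3194, 2878 and 2848 and 6243, 4457 and 4919.9. All JQ1 libraries exceeded all DMSO libraries, and the clones of each group were close together except clone 12 with JQ1. PCNA rose by 1.05 ± 0.07 (adjusted p = 1.5e-05) in control clones and by 0.80 ± 0.07 (adjusted p = 3.8e-05) in knockout clones. RFC3, a loader subunit, averaged 2220.3, 2261 and 2133 normalized counts with DMSO and 1331, 1269 and 1114 with JQ1 in the same order of control clones. It was lower with JQ1 in each of the 6 clones and fell by 0.84 ± 0.06 (adjusted p = 2.2e-05) in control and 0.81 ± 0.06 (adjusted p = 2.3e-05) in knockout clones. RFC4 fell by 0.33 ± 0.07 in control clones (adjusted p = 0.0036) and differed by -0.14 ± 0.07 in knockout clones (adjusted p = 0.11). RFC2 and RFC5 were not called in either genotype, and the 95% interval for RFC2 in control clones was -0.00 to 0.24.

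Partners within the polymerase and the chromatin assembly groups moved apart. POLE is the catalytic subunit of DNA polymerase epsilon and POLE2 an accessory subunit. POLE averaged 2362, 2789 and 3208 normalized counts in control clones 3, 10 and 13 with DMSO and 3567, 4310.1 and 4822 with JQ1, and rose by 0.60 ± 0.06 (adjusted p = 6.2e-05). POLE2 averaged 546, 466 and 258 and 202, 220.3 and 138, and fell by 1.14 ± 0.11 (adjusted p = 7.8e-05). No POLE library with JQ1 was as low as any with DMSO, and for POLE2 the order was the reverse in each clone, although clone 13 with DMSO was near the other clones with JQ1. In knockout clones POLE rose by 0.26 ± 0.06 (adjusted p = 0.0039) and POLE2 fell by 0.95 ± 0.11 (adjusted p = 1.7e-04). On FPKM the difference of POLE in knockout clones was 0.07 (adjusted p = 0.34), so that call was lost on that scale. It was lost too with the doubtful library included (0.19, adjusted p = 0.065). POLA1, the catalytic subunit of polymerase alpha, fell by 0.18 ± 0.05 (adjusted p = 0.022) and 0.35 ± 0.05 (adjusted p = 6.3e-04). The POLA1 call in control clones was lost without any 1 of them, with an adjusted p of 0.059 without clone 10 and 0.11 without clone 3 or 13. It was also lost on FPKM (adjusted p = 0.073) and without replicate 1 (adjusted p = 0.13). POLA2, POLD3 and the primase PRIM1 were not called, and POLD1, the catalytic subunit of polymerase delta, fell in knockout clones (-0.38 ± 0.10, adjusted p = 0.012). Without knockout clone 12 or 15 POLD1 was not called (adjusted p = 0.064 and 0.079). In control clones the 95% interval for POLD1 was -0.23 to 0.23, and the difference between genotypes was -0.38 ± 0.14 (adjusted p = 0.13).

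CHAF1B, the middle subunit of the chromatin assembly factor CAF-1, averaged 1215, 901 and 916 normalized counts with DMSO and 1893, 1504 and 1481 with JQ1 in control clones 3, 10 and 13. It rose by 0.69 ± 0.08 (adjusted p = 2.5e-04) there and by 0.60 ± 0.08 (adjusted p = 4.7e-04) in knockout clones. CHAF1A, the large subunit of CAF-1, differed by -0.14 ± 0.06 in control clones (adjusted p = 0.065) and fell by 0.35 ± 0.06 in knockout clones (adjusted p = 8.6e-04). FEN1, the nuclease that trims Okazaki fragments, fell by 0.32 ± 0.05 (adjusted p = 0.0014) and 0.32 ± 0.05 (adjusted p = 0.0012). LIG1, the ligase that seals them, rose in control clones and fell in knockout clones, with values given below with the test of that difference.

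Within the MCM helicase, whose 6 subunits form 1 ring, MCM2 fell while MCM4 and MCM6 rose. MCM2 averaged 6311, 5918 and 5511 normalized counts in control clones 3, 10 and 13 with DMSO and 4159.5, 3980.3 and 3448 with JQ1, with no overlap, and fell by 0.62 ± 0.05 (adjusted p = 4.3e-05). Its fall in knockout clones was 0.49 ± 0.05 (adjusted p = 1.1e-04). MCM4 averaged 5989.8, 6110.2 and 6084 and 7834, 8248 and 8511 in control clones and rose by 0.43 ± 0.07 (adjusted p = 7.6e-04), and by 0.29 ± 0.07 in knockout clones (adjusted p = 0.0056). MCM6 rose by 0.37 ± 0.08 (adjusted p = 0.0058) and 0.33 ± 0.08 (adjusted p = 0.01). MCM3 rose by 0.34 ± 0.06 in control clones (adjusted p = 0.0014), and its 95% interval in knockout clones was -0.09 to 0.18. MCM7 fell by 0.19 ± 0.07 (adjusted p = 0.041) and 0.25 ± 0.07 (adjusted p = 0.011). The MCM7 call in control clones was lost without any 1 of them, with an adjusted p of 0.20, 0.12 and 0.092 without clone 10, 13 and 3, and in knockout clones without clone 15 (adjusted p = 0.056). In control clones it was also lost with TMM scaling (adjusted p = 0.061), with edgeR (0.065), without replicate 2 (0.054) and with the doubtful library included (0.068). MCM6 was not called in knockout clones without clone 12 (adjusted p = 0.058).

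As shares of the summed FPKM of MCM2 to MCM7, MCM2 went from 14.0 ± 1.76% to 8.79 ± 1.23% (SD, n = 3) in control clones and from 13.2 ± 2.08% to 10.0 ± 2.17% in knockout clones. MCM4 went from 20.2 ± 0.670% to 25.8 ± 2.11% in control clones and from 16.9 ± 1.52% to 21.3 ± 3.42% in knockout clones. By the mean over clones MCM7 remained the subunit with the highest share of FPKM in each group. Its share was 33.2 ± 2.90% in control clones with DMSO and 28.1 ± 2.70% with JQ1. In knockout clones with JQ1 it was 34.6 ± 9.87%, from 24.9 to 44.6% over clones, where the MCM4 share reached 25.1%. In control clones the MCM2 and MCM4 shares with JQ1 lay outside the range with DMSO. These shares are descriptions and were not tested.

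**Figure D3:**
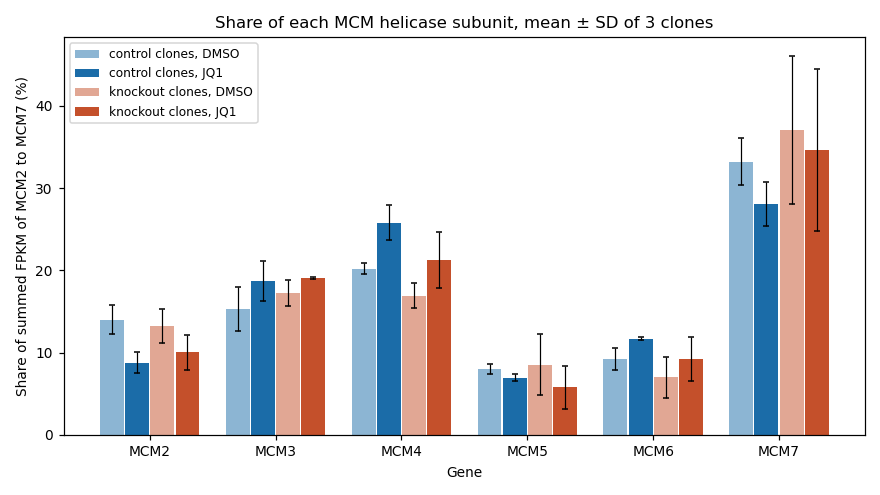
Share of each subunit in the summed FPKM of MCM2 to MCM7 (vertical axis, %), by genotype and treatment; bars are means of 3 clones and error bars are the SD. The MCM2 bar in control clones drops from 14.0% with DMSO to 8.79% with JQ1, and the MCM4 bar rises from 20.2% to 25.8%.

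Of the remaining licensing genes, CDC6, which with ORC loads the helicase, rose by 0.57 ± 0.09 in control clones (adjusted p = 6.9e-04). ORC6 fell by 0.31 ± 0.10 (adjusted p = 0.024) and CDT1 by 0.24 ± 0.07 (adjusted p = 0.019) in knockout clones, and neither was called in control clones. ORC6 was not called without knockout clone 12 (adjusted p = 0.064) or 15 (adjusted p = 0.14), nor CDT1 without clone 15 (adjusted p = 0.073). CDT1 was also not called on FPKM (adjusted p = 0.092) or with the doubtful library included (adjusted p = 0.083). ORC1, the ATPase subunit of the origin recognition complex, had the smallest response of the licensing genes in control clones, with a 95% interval of -0.21 to 0.24.

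Of the 6 origin firing genes, CDC45, GINS1 and MCM10 fell in both genotypes. CDC45, a subunit of the active helicase, averaged 1062, 1061 and 1047 normalized counts in control clones 3, 10 and 13 with DMSO and 655, 682 and 694 with JQ1, and 805, 1066 and 752 and 394, 518 and 438 in knockout clones 12, 15 and 2-1. Every JQ1 library was below every DMSO library of its genotype, and CDC45 fell by 0.64 ± 0.07 (adjusted p = 1.5e-04) and 0.95 ± 0.07 (adjusted p = 2.5e-05). GINS1 fell by 0.78 ± 0.08 (adjusted p = 8.2e-05) and 0.85 ± 0.08 (adjusted p = 4.9e-05), and MCM10, which is needed for helicase activation, by 0.72 ± 0.10 (adjusted p = 3.8e-04) and 0.78 ± 0.10 (adjusted p = 2.2e-04). The subunits of the 4-part GINS complex did not all move alike. GINS2 rose by 0.36 ± 0.07 (adjusted p = 0.0026) and GINS4 by 0.38 ± 0.10 (adjusted p = 0.013) in control clones, and GINS3 fell by 0.37 ± 0.09 in knockout clones (adjusted p = 0.0095). In control clones GINS3 differed by -0.24 ± 0.09 (adjusted p = 0.062). The GINS4 call was lost without control clone 13 (adjusted p = 0.095).

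None of the 4 nucleotide supply genes was called in control clones. RRM1 and RRM2 are the subunits of ribonucleotide reductase, which makes deoxyribonucleotides. RRM2 averaged 4819.6, 3181 and 4499 normalized counts in control clones 3, 10 and 13 with DMSO and 7997, 3805 and 3654 with JQ1. The level with JQ1 was higher in clones 3 and 10 and lower in clone 13, so the difference of 0.23 ± 0.15 did not exceed the spread between clones (adjusted p = 0.25). In knockout clones RRM1 fell by 0.37 ± 0.05 (adjusted p = 5.9e-04) and TK1, thymidine kinase of the salvage path, by 0.67 ± 0.11 (adjusted p = 9.0e-04). TYMS had 95% intervals of -0.00 to 0.29 in control and -0.21 to 0.08 in knockout clones.

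The comparison of knockout with control clones asks how loss of NEUROD1 changed these genes in each treatment. E2F1 was the member that differed most clearly: its normalized counts were 683 ± 53.8 in knockout and 1422 ± 124 in control clones with DMSO (SD, n = 3 each), and 937 ± 15.7 and 1866 ± 153 with JQ1. With DMSO it was the single member called. With JQ1, 5 more members were lower in knockout clones, each from another role: MCM6, GINS2, PCNA, CHAF1A and RRM1. No member was called higher in either treatment.

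E2F1 averaged 1519.7, 1463 and 1283 normalized counts in control clones 3, 10 and 13 with DMSO, and 663, 743 and 641 in knockout clones 12, 15 and 2-1. With JQ1 it averaged 1706, 2011 and 1881 and 920.3, 951 and 941. Every knockout library was below every control library of the same treatment. The log2 difference was -1.06 ± 0.14 (SE) with DMSO (adjusted p = 0.0049) and -0.99 ± 0.13 with JQ1 (adjusted p = 0.0043), and E2F1 was called lower with DMSO under all 19 alternatives tried, with an adjusted p of at most 0.035. Even with JQ1, every knockout library held less E2F1 than any control library with DMSO.

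With DMSO, 0 of 46 members were higher and 1 was lower in knockout clones, beside 6.32% and 6.23% of all genes, which is no more than the background. The median log2 difference was -0.27 over members and 0.01 over all genes tested, and 36 of the 46 differences were negative. At an unadjusted p below 0.05 there were 13 members (28.3%), close to the 27.9% of all genes. The 1 call at the adjusted threshold became 4 without knockout clone 12 and 2 without knockout clone 15. CCNE2 averaged 772, 734 and 945 in control and 569.8, 513 and 537 in knockout clones, without overlap, and missed the threshold (adjusted p = 0.052), as did MCM6 (adjusted p = 0.059). E2F8 pointed upwards, at 0.62 ± 0.30, with an adjusted p of 0.24: knockout clone 15 had 567 normalized counts and clone 2-1 253, the latter close to the control clones.

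With JQ1, 0 members were higher and 6 were lower in knockout clones, beside 5.63% and 5.53% of all genes, above the background for lower calls. The median was -0.39 over members and 0.01 over all genes, 38 of 46 differences were negative, and 17 members (37.0%) had an unadjusted p below 0.05, beside 26.3% of all genes. GINS2 averaged 792, 808 and 736 normalized counts in control clones 3, 10 and 13 and 467, 388 and 462 in knockout clones 12, 15 and 2-1, and was lower by -0.83 ± 0.15 (adjusted p = 0.017). MCM6 averaged 5614, 5736 and 5978 and 3682, 4039 and 3493, and was lower by -0.63 ± 0.12 (adjusted p = 0.02). Neither gene had an overlap between genotypes. PCNA was lower by -0.65 ± 0.16 (adjusted p = 0.041), CHAF1A by -0.55 ± 0.13 (adjusted p = 0.037) and RRM1 by -0.61 ± 0.15 (adjusted p = 0.045).

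The calls beside E2F1 changed when 1 clone was left out, and each difference kept its sign. The count of 6 became 1 without control clone 10, 2 without control clone 13, 1 without control clone 3, 10 without knockout clone 12, 3 without knockout clone 15 and 3 without knockout clone 2-1. Without 1 control clone the difference was between -0.65 and -0.60 for MCM6, between -0.67 and -0.62 for PCNA, between -0.56 and -0.54 for CHAF1A, between -0.67 and -0.56 for RRM1 and between -0.87 and -0.80 for GINS2. With the doubtful library of clone 12 included, 10 members were lower and 1 higher. Without the filter on low counts PCNA and RRM1 were not called (adjusted p = 0.051 and 0.053). RRM1 was also not called with edgeR (adjusted p = 0.0503) or without replicate 3 (adjusted p = 0.059). CDC25A showed how far single clones differ: with JQ1, knockout clone 12 had 856 normalized counts, the closest to the control clones, and clones 15 and 2-1 had 344 and 391. Some markers of other cell types also differed between genotypes with DMSO. The 4 of 7 blood and immune markers with counts, nearly all from CD68, summed to 18.7 to 82.2 normalized counts in control and 228 to 917 in knockout libraries. The stroma markers summed to 806 to 4656 in control libraries. In knockout libraries they summed to 5716 to 6088 in clone 12, 10044.5 to 11001 in clone 15 and 36056 to 37629 in clone 2-1. Of the 3 stroma markers tested 0 were called, and COL1A1 overlapped, with 262 to 2232 in control and 190 to 1176 in knockout libraries. The part of these shifts in the members' values was not tested; among the lung epithelium markers SFTPA1 and CEACAM6 were at 0 FPKM in every DMSO library.

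**Figure D4:**
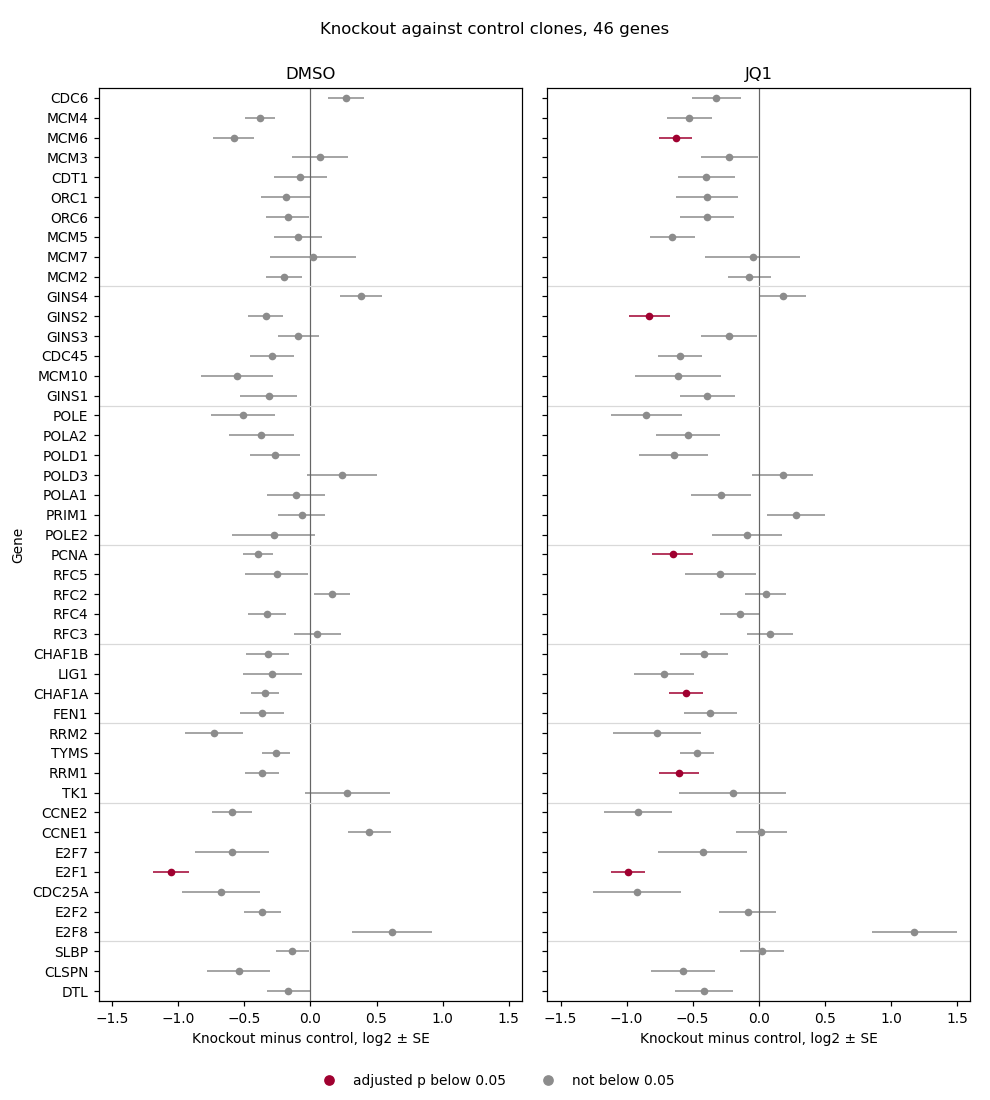
Knockout minus control difference in log2(normalized count + 1), mean over 3 against 3 clones ± SE (horizontal axis), for the 46 genes with DMSO (left) and JQ1 (right); dark red points have an adjusted p below 0.05. E2F1 is called in both panels, and 36 points with DMSO and 38 with JQ1 lie below 0.

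Whether the genotypes responded differently to JQ1 was tested as the difference of the clones' responses. In knockout clones CDC6, MCM5, GINS2, LIG1 and POLE responded to JQ1 with a lower value than in control clones. These 5 genes serve licensing, the helicase, origin firing, ligation and synthesis. Of the 46 members 0 had a higher and 5 a lower response in knockout clones, beside 3.75% and 3.61% of all genes. At an unadjusted p below 0.05 there were 20 members (43.5%), beside 27.2% of all genes. The median difference was -0.15 over members and 0.00 over all genes.

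CDC6 averaged 1684, 1487 and 1542 normalized counts in control clones 3, 10 and 13 with DMSO and 2269.9, 2186 and 2569.7 with JQ1. In knockout clones 12, 15 and 2-1 it averaged 2151, 1756 and 1779 and 2271, 1479.9 and 1949. The log2 response was thus 0.43, 0.56 and 0.74 in control clones and 0.08, -0.25 and 0.13 in knockout clones. It was positive in all 3 control clones and smaller in every knockout clone, and below 0 in clone 15 alone. The difference of responses was -0.59 ± 0.12 (adjusted p = 0.03).

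MCM5, a helicase subunit, responded with -0.24, 0.01 and -0.06 in control clones 3, 10 and 13 and with -0.70, -0.81 and -0.46 in knockout clones 12, 15 and 2-1. The knockout clones fell by 0.66 ± 0.08 on average (adjusted p = 1.8e-04) and the control clones were not called (adjusted p = 0.32), with a difference of -0.56 ± 0.11 (adjusted p = 0.028). LIG1 responded with 0.21, 0.26 and 0.14 and -0.21, -0.32 and -0.17 in the same order of clones. It rose in control clones (0.20 ± 0.05, adjusted p = 0.014) and fell in knockout clones (-0.23 ± 0.05, adjusted p = 0.0067), and the responses did not overlap (difference -0.43 ± 0.08, adjusted p = 0.023). On FPKM the fall of LIG1 in knockout clones was not called (adjusted p = 0.11), and without control clone 10 or 3 its rise was not (adjusted p = 0.11 and 0.069). The rise of LIG1 in control clones was also not called with equal library totals (0.13, adjusted p = 0.077) or without replicate 1 (adjusted p = 0.062).

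GINS2 responded with 0.36, 0.45 and 0.28 in control and -0.04, -0.22 and -0.11 in knockout clones, a difference of -0.49 ± 0.10 (adjusted p = 0.029). POLE responded with 0.59, 0.63 and 0.59 and 0.23, 0.17 and 0.38, a difference of -0.34 ± 0.08 (adjusted p = 0.038). In both genes all 3 control clones lay above all 3 knockout clones. E2F8 fell less far in knockout clones, with a difference of 0.56 ± 0.16 that missed the threshold (adjusted p = 0.069). For SLBP, RFC3, FEN1 and E2F1 the differences were 0.16, 0.03, -0.00 and 0.07, and the 95% interval for RFC3 was -0.16 to 0.22.

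The calls of these 5 differences changed when 1 clone was left out, and each difference kept its sign. The count of calls was 0 without control clone 10, without control clone 13, without control clone 3 or without knockout clone 15, and 8 without knockout clone 12 or without knockout clone 2-1. Without knockout clone 15, whose median response over the 46 members was -0.26 against -0.02 in clone 12 and -0.11 in clone 2-1, the difference for CDC6 was -0.47 and for MCM5 -0.48. Without 1 control clone the difference stood between -0.66 and -0.50 for CDC6, between -0.63 and -0.51 for MCM5, between -0.53 and -0.45 for GINS2, between -0.46 and -0.40 for LIG1 and between -0.35 and -0.33 for POLE, each with an adjusted p above 0.05. On FPKM CDC6, GINS2 and LIG1 were not called (adjusted p = 0.082, 0.076 and 0.082). With the doubtful library included MCM5 and POLE were not called (adjusted p = 0.069 each). POLE was also not called with edgeR (adjusted p = 0.060) or without replicate 1 or 2 (adjusted p = 0.060 and 0.061). The calls of LIG1 without replicate 1 (adjusted p = 0.051) and GINS2 without replicate 2 (adjusted p = 0.068) were lost too.

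**Figure D5:**
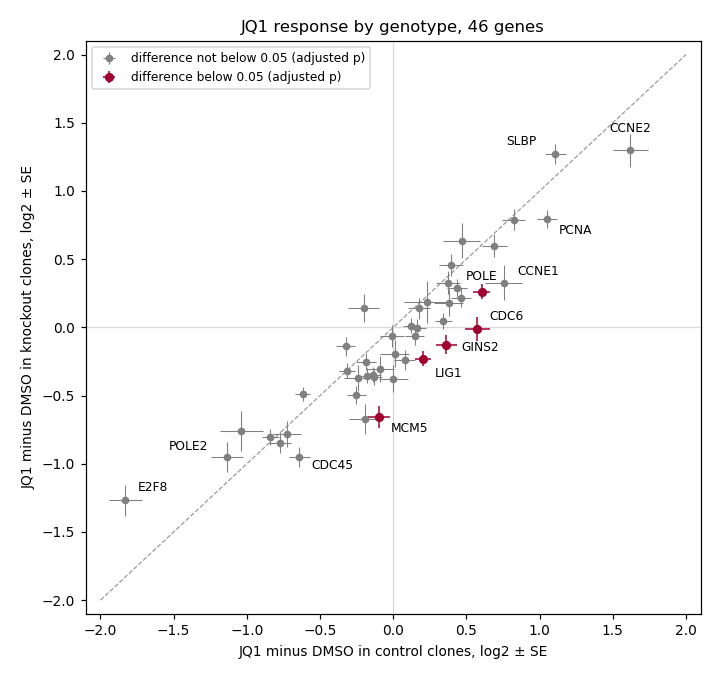
Mean JQ1 minus DMSO difference in log2(normalized count + 1) in control clones (horizontal axis) and knockout clones (vertical axis) for the 46 genes, ± SE, 3 clones each; the dashed line marks equal responses and dark red points have an adjusted p below 0.05 for the difference. CDC6, MCM5, GINS2, LIG1 and POLE lie below the line, and E2F8 lies above it.

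Summed over the 46 members, control libraries held 93614 to 97354 normalized counts with DMSO and 103945 to 109853 with JQ1, so the treatments did not overlap. Knockout libraries held 72145 to 94274 with DMSO and 66743 to 96693 with JQ1, and there the ranges overlapped. The sum weighs the most abundant members, such as MCM7, MCM4 and PCNA, and 24 or 25 members had a response above 0 in each control clone.

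Other genes of the same pathways were read from lists that do not hold the members. Their counts stand beside 25.1% higher and 27.3% lower with JQ1 over all genes tested in control clones, and 26.2% and 30.2% in knockout clones. For the difference of responses the shares over all genes were 3.75% higher and 3.61% lower. Counts near these shares are not read as a response of a pathway. Of 33 other replication genes, 13 were higher and 7 lower with JQ1 in control clones, with a median of 0.10, and 9 and 7 in knockout clones. The largest of these in control clones were UNG, a uracil DNA glycosylase, with 1.04 ± 0.08, POLE4, a small subunit of polymerase epsilon, with 0.96 ± 0.11, and the histone chaperone ASF1B with 0.95 ± 0.11. UHRF1, which maintains DNA methylation behind the fork, was lower in knockout clones with DMSO (-0.54 ± 0.13, adjusted p = 0.043) and with JQ1 (-1.13 ± 0.16, adjusted p = 0.0051). Its response to JQ1 was also lower in knockout clones, with a difference of -0.60 ± 0.07 (adjusted p = 0.009), and UHRF1 was the 1 of 33 called in that test.

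Of 13 other nucleotide synthesis genes, 5 were higher and 3 lower with JQ1 in control clones, and 4 and 5 in knockout clones. SAMHD1, which degrades deoxyribonucleotides, rose by 1.17 ± 0.08 in control and 1.15 ± 0.08 in knockout clones. Of 26 tested RB-E2F and cyclin-CDK genes outside the members, 6 were higher and 9 lower in control clones, and 7 and 10 in knockout clones. CDKN1A, the CDK inhibitor p21, went from 4199.7 ± 848 to 15532 ± 2899.6 normalized counts (SD, n = 3) in control clones and from 2965 ± 866 to 13289.9 ± 1822 in knockout clones, with differences of 1.89 ± 0.21 (adjusted p = 1.5e-04) and 2.20 ± 0.21 (adjusted p = 6.6e-05). TFDP2, a dimer partner of E2F proteins, was lower in knockout clones with DMSO by -1.24 ± 0.14 (adjusted p = 0.0028). MYC, a textbook target of BET inhibition, was higher with JQ1 in both genotypes, by 1.08 ± 0.13 (adjusted p = 2.1e-04) and 1.66 ± 0.13 (adjusted p = 2.7e-05).

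Of 9 S phase checkpoint genes, 4 were higher and 1 lower with JQ1 in control clones and 7 and 1 in knockout clones. HUS1, part of the checkpoint clamp, rose by 0.77 ± 0.09 in control and 1.33 ± 0.09 in knockout clones, and its responses differed by 0.56 ± 0.13 (adjusted p = 0.037). ETAA1, an activator of the ATR kinase, fell by 0.77 ± 0.11 and 0.55 ± 0.11. In the G2 and mitosis list the responses went the other way from those of the members between genotypes: 3 of 40 were called, all with a higher value in knockout clones, with a median difference of 0.39 beside -0.15 over the members. FOXM1, a transcription factor of the G2 program, fell by 2.18 ± 0.08 in control and 1.43 ± 0.08 in knockout clones (difference 0.75 ± 0.12, adjusted p = 0.017). E2F letters were in 3 of 34 promoters of that list (8.82%) and in 10 of 27 of the other replication genes (37.0%).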

How the data were processed

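Total RNA was sequenced from stranded poly(A) libraries, and the submitters' processing notes name cutadapt, STAR, RSEM and the hg19 build, without versions. The authors deposited a table of size-factor normalized counts (signal, named as a DESeq2 table) and a table of FPKM, deposited per gene for each library. Division by a size factor found from the steps of the values gave whole reads for 100% of values (tolerance 1e-06) in each of the 36 libraries.

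Members and gene lists were chosen with earlier results of these data known. Libraries of a clone and treatment were averaged, and clones were compared as replicates by limma 3.58.1 (R 4.3.3, trend in the prior variance) on log2(normalized count + 1). The tests covered the 15819 genes that reached 10 normalized counts in 9 or more of all 36 libraries, the doubtful one included. A fold change on this scale understates the change of low genes. Tests were two-sided with Benjamini-Hochberg adjustment over all genes tested, at a threshold of 0.05. JQ1 responses were differences of clone means, with both genotypes in 1 fit. FPKM served for levels between genes and as an alternative scale.

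On the recovered reads, summed per clone and treatment, edgeR 4.0.16 (quasi-likelihood) called 1, 5, 30, 33 and 4 members and DESeq2 1.42.0 called 7, 13, 30, 33 and 7, for knockout against control with DMSO and with JQ1, JQ1 in control and in knockout clones, and the difference of responses. Members given in full were the up to 5 largest rises and falls past the threshold in each comparison and the largest and smallest JQ1 response of each role. Same-numbered libraries across treatments did not deviate together: 0 of 17 pairs had a correlation above 0.1, so numbers were not used to pair samples. No 2 replicate libraries agreed within sampling noise (chi-square over degrees of freedom 2.16 to 12.98). The highest values, 12.98, 7.71 and 5.03, were all of control clone 13 with JQ1, and the other pairs reached at most 4.61. RSEM may split reads between a gene and its pseudogene copies, and the 8 such rows of 4 members (FEN1, PCNA, RFC3 and RRM2) reached at most 0.62 FPKM. Alternatives covered scaling, pseudocount, filter, tool, single libraries, left-out clones and replicates, and a 2-fold minimum. Figures were drawn with matplotlib 3.10.9 in Python 3.11.15.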

Additional observations from a re-analysis of the deposited data

Results flagged for a closer look

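The JQ1 response of 5 members differed between genotypes by the test of the difference itself. The knockout minus control difference was -0.59 on the log2 scale for CDC6, -0.56 for MCM5, -0.49 for GINS2, -0.43 for LIG1 and -0.34 for POLE, and without any 1 of the control clones each kept its sign and a like size but was not called, with 2 control clones left in the fit. Knockout clone 12 with JQ1 replicate 1 held lung epithelium markers that summed to 67884 normalized counts, and it was kept out of the comparisons above. The next highest library, control clone 13 with JQ1 replicate 1, had 129.8, and the others at most 34.9.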

How the results depend on the processing

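Counts of members called depended on the alternative most where they were small. For knockout against control clones with DMSO the count of 1 became 4 with equal library totals, 2 with TMM and 2 on FPKM. It became 7 with DESeq2 and 17 with single libraries, where the clone entered as a block. With JQ1 the count of 6 became 11 with the doubtful library included, 13 with DESeq2, 19 with single libraries and 0 with a 2-fold minimum. JQ1 calls of 30 in control and 32 in knockout clones became 6 and 3 with a 2-fold minimum. The 5 differences of response became 2 on FPKM, 31 with single libraries and 0 with a 2-fold minimum. In all of these the cause was not tested, except that the 2-fold minimum keeps fewer members by construction. Single libraries of 1 clone are not independent. In the comparisons of genotypes the clone block allows for this by a correlation shared by all genes. With the replicate block the fit of single libraries called 17, 20, 40, 41 and 28 members in the 5 comparisons, close to the 17, 19, 40, 41 and 31 without it. Leaving out 1 clone or 1 replicate number gave 1 to 4 members with DMSO, 1 to 10 with JQ1, 26 to 33 and 28 to 33 for JQ1 in control and knockout clones, and 0 to 8 for the difference. With a clone left out, that genotype rests on 2 clones. Over the 46 members, 5 comparisons and 19 alternatives (the 2-fold minimum apart), 4042 of 4370 values kept their side of the adjusted threshold, 93 lost a call and 235 gained one. The sign changed in 0 values of members called in that comparison and in 105 of members not called. Depth limits E2F8 most, which had the lowest level in FPKM and as few as 37 reads in a library, and 3 clones per genotype limit every comparison of genotypes.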
